A study of Homo sapiens with 16 samples.

Results

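The sites described here lie in genes of splicing regulators: SR proteins and their relatives, hnRNP and PTB proteins, RBM proteins, tissue-type regulators such as RBFOX2 and QKI, and the kinases of SR proteins. Members were chosen by name, and every site whose deposited gene symbol is one of 59 names was taken. These were 118 of the 13398 sites in the table, in 42 of the 59 genes and on 19 chromosomes, and all of them are annotated to protein-coding genes. The table is a PRAISE-seq map of pseudouridine in HEK293T, a transformed human line derived from embryonic kidney. PRAISE-seq treats RNA with bisulfite, after which reverse transcriptase skips pseudouridine, so that some reads show a deletion at the modified base. Each site has 1 pooled deletion level and 1 read coverage.

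The labels describe 16 libraries in 6 groups. HEK293T control cells gave 2 bisulfite-treated and 2 untreated libraries. HEK293T cells with a triple knockout of PUS1, PUS7 and RPUSD4, which the design text gives as the negative control, gave 3 treated libraries and 3 whose titles lack the bisulfite mark. HuCCT1 cells, a cholangiocarcinoma line, gave 3 treated and 3 input libraries. Per the labels, all libraries were made from total RNA with ribosomal RNA depleted. The sources used here do not give how the knockout was made, whether it is 1 clone, or which libraries the pooled values came from. The table holds no value per library and no expression values, so levels have no replicate error, conditions could not be compared, and the cell line labels were not checked against markers.

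Pseudouridine is an isomer of uridine that pseudouridine synthases make in RNA, in part while pre-mRNA is still being transcribed. Splicing regulators bind pre-mRNA and decide which splice sites the spliceosome uses: SR proteins mostly promote the use of nearby exons, while many hnRNP proteins, PTB among them, often repress it. Many SR and hnRNP genes also control the splicing of their own transcripts.

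The sequences with the highest levels are shown because they stand apart from the median site, whose level was 12.5%. Each is the deposited context of 11 bases around the site, 5′ to 3′ on the strand of the site, in DNA letters, with the listed base in capitals. These are the 8 sites with a level of at least 30%.
QKI, intron, 81.2%: cggaaTttctt
CELF1, 3'UTR, 76.4%: tttttTgtttt
RBFOX2, intron, 56.2%: cttccTctgcc
SRSF12, exon, 47.1%: gatttTcttat
PTBP2, intron, 44.0%: tttttTcctgc
MBNL1, intron, 42.1%: ctaaaTaaatt
PTBP2, intron, 37.5%: tttttTtcctg
HNRNPA2B1, intron, 35.7%: cagccTttttt
The listed base stands inside or at the edge of a stretch of uridines in 6 of the 8, counting stretches of at least 2, and alone in the RBFOX2 and MBNL1 contexts. In the CELF1, PTBP2 and HNRNPA2B1 contexts, 4 of the 8, the stretch holds at least 5 uridines. The PTBP2 contexts are neighbouring bases of the same stretch, so neither count is one of separate places. Over all 118 sites the shares were 61.9% in stretches of at least 2 and 22.9% in stretches of at least 5. The first 2 of the list lie on the strand opposite to the gene, as described below.

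The listed levels of these genes had a median of 12.5% (quartiles 8.22 and 17.0%), against 12.0% over all sites (quartiles 7.7 and 18.5%). Levels of at least 20% were found at 19 sites (16.1%, 95% Clopper-Pearson interval 9.98 to 24.0%), against 21.4% of all sites. Coverage had a median of 35 reads, as over the whole table, and ranged from 15 to 189. At least 60 reads covered 26 sites (22.0%), against 19.8% of all sites. Deletion reads numbered 3 to 55 with a median of 4, and 38 sites had exactly 3 (32.2%, against 36.8% of all sites). The listed sites obey a minimum of 15 covering reads, 3 deletion reads and a level of 5.0%, so that a site with 15 reads is listed only at 20% or above. A level of 3 deletions in 15 reads has an interval of 4.33 to 48.1%. All intervals printed are 95% Clopper-Pearson intervals and cover counting error only, since PCR copies are not independent molecules. Within bins of coverage the medians stayed near those of the table: 18.2% against 18.8% under 30 reads, 9.75% against 9.3% from 30 to 59 reads, and 6.65% against 6.7% at 60 reads or more.

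The authors' deposited table gives a p-value of 0 at all 118 sites, so it does not rank them. In place of it, the deletion reads of each listed site were tested against a fixed background of 1% with an exact binomial test, one-sided, adjusted by Benjamini-Hochberg over 3.86e+06 tests, the number that the authors' ratio of FDR to p-value implies. Past this background were 44 of the 118 sites (37.3%, interval 28.6 to 46.7%), against 37.5% of all sites. The other 74 sites are listed by the authors but did not pass this test. They had a level of at most 18.8% and at most 7 deletion reads, and some were among the deepest, such as HNRNPA0 with 6 of 117 reads. The count rests on the setting: it was 16 against a background of 2%, and 118 against 0.1% or with adjustment over the listed sites alone. Below, a site "past the background" is one of these 44.

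**Figure D1:**
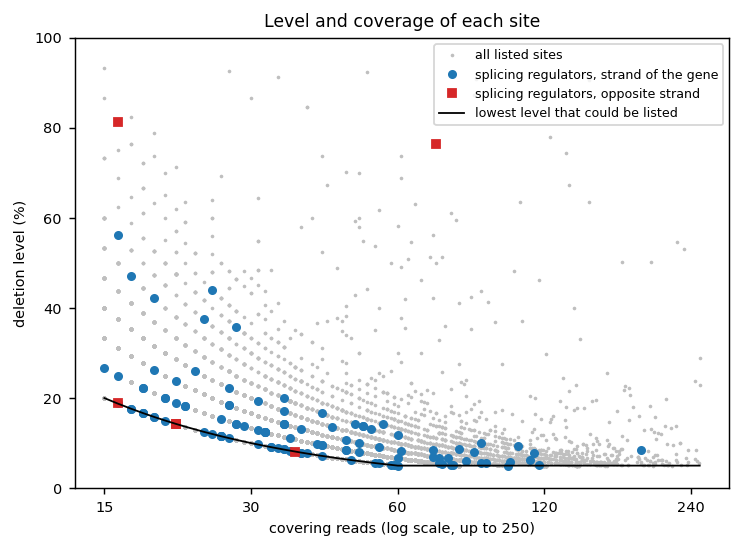
Deletion level in percent of covering reads (vertical axis) against covering reads (horizontal log axis) for the sites of the splicing regulators and, in grey, for all listed sites in the plotted range. The line is the lowest level that the minimum of 3 deletion reads and 5.0% allows. The 38 sites with exactly 3 deletion reads lie on the line where it falls, and the 2 highest, at 81.2% and 76.4%, lie on the strand opposite to their gene.

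Of the 59 genes 42 had a site (71.2%), against 25.5% of all RefSeq protein-coding genes. Of the 6438 such genes whose length falls between the quartiles of the 59 (12091.5 to 42866.5 nt), 24.2% had a site. Neither comparison set was matched for expression, for which no values were available. The 59 genes were also chosen with earlier results of these data known. Among 67 other splicing regulators outside the 59, 37 had a site (55.2%). The 42 genes with a site had a median length of 29890.5 nt, and the 17 without one had 15978 nt. No site was listed in SRSF5, SRSF6, SRSF7, SRRM1, SRRM2, HNRNPA3, HNRNPD, HNRNPH1, HNRNPH2, HNRNPH3, HNRNPL, HNRNPM, HNRNPUL2, PTBP1, RBM10, RBM17 and CLK3. A table of called sites does not give the coverage of genes without a site, so these genes are not shown to lack pseudouridine. Among the 42 genes, 17 had 1 site and 9 had 2. The most sites were found in PTBP2 and SRPK2, with 9 each, and in SRSF11 and MBNL1, with 8 each. Site number against gene length gave a Spearman rho of 0.48 over the 59 genes, given as a description, since longer genes offer more uridines and the genes share the same libraries.

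Introns held 75 of the 118 sites (63.6%, interval 54.2 to 72.2%), against 50.9% over the whole table and 56.0% for protein-coding genes. The 3'UTR held 16 sites (13.6%) and exons 7 (5.93%, interval 2.42 to 11.8%), against 17.6% exonic over all sites. The transcription termination region, written TTS in the table, held 11 sites (9.32%, interval 4.75 to 16.1%), against 2.48% of all sites. Promoter regions held 4 (3.39%, interval 0.931 to 8.45%), against 9.05% of all sites, and intergenic sequence 2 (1.69%), against 6.25%. The 5'UTR held 3 (2.54%), against 1.03%. The 11 termination sites came from 8 genes: HNRNPDL, HNRNPR, PTBP2, RBM39 and SRSF9 had 1 each, and HNRNPF, HNRNPA1 and PTBP3 each had 2 on neighbouring bases. Intronic sites had a median of 13.7% at a median coverage of 31 reads, exonic sites 8.1% at 71 reads, 3'UTR sites 11.45% at 49.5 reads and termination sites 11.7% at 51 reads. Intronic sites were both higher and shallower than exonic ones, and the part of coverage in that order was not tested.

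**Figure D2:**
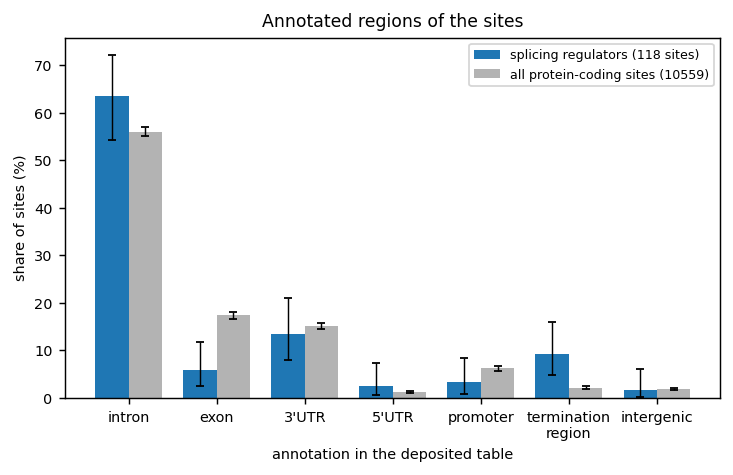
Share of sites in percent (vertical axis) by annotated region for the sites of the splicing regulators and for all protein-coding sites, with 95% Clopper-Pearson intervals as error bars. Introns hold 63.6% against 56.0%, exons 5.93% against 17.4%, and termination regions 9.32% against 2.14%.

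**Figure D3:**
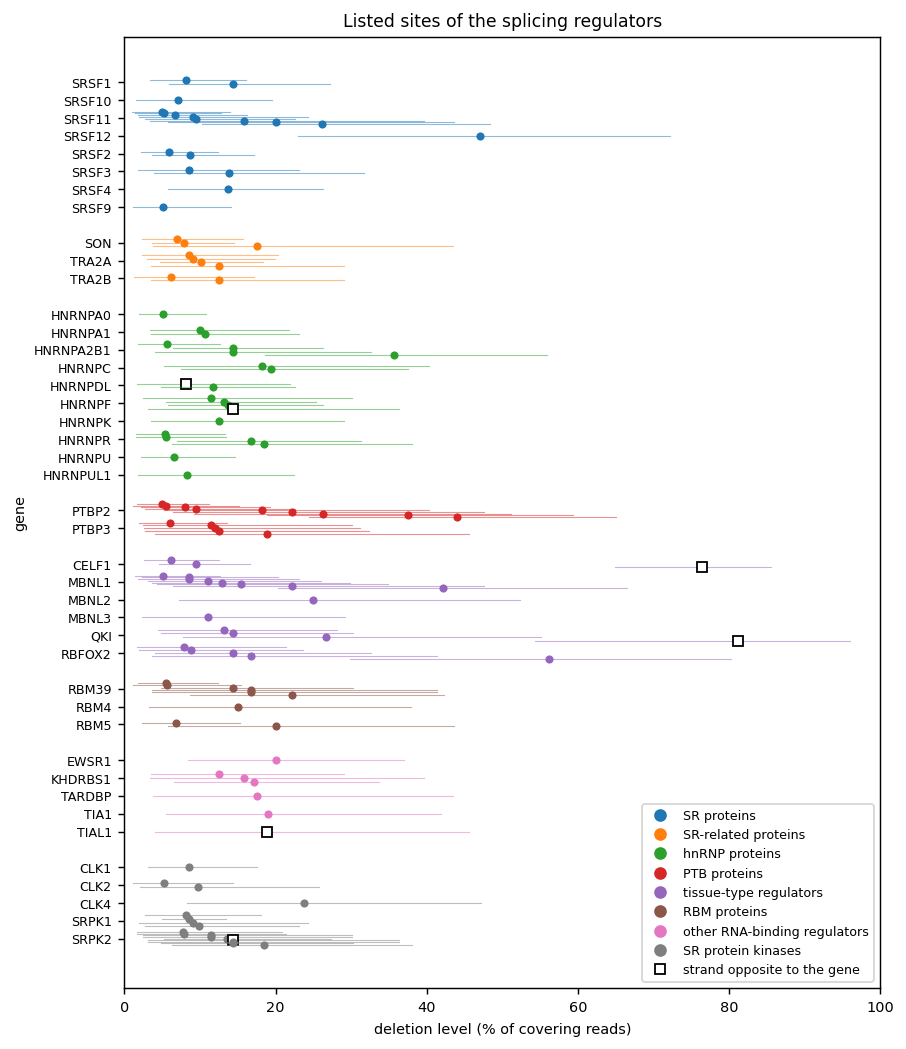
Deletion level in percent (horizontal axis) of each of the 118 sites by gene, with genes grouped by role and 95% Clopper-Pearson intervals as lines. White squares are the 6 sites on the strand opposite to the gene. Sites of at least 30% are found in 7 genes, and those of QKI and CELF1 above 75% are white squares.

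SR proteins bind exonic enhancers through their RNA recognition motifs and recruit the spliceosome through domains rich in arginine and serine. Of the 11 genes 8 had a site, and these held 18 sites at a median of 8.9%. Of the 18, 10 were intronic and 7 past the background. SRSF11, an SR protein also known as p54, held 8 sites, all intronic, from 5.0 to 26.1% with a median of 9.3%. Its highest, at chromosome 1 position 70242945 (hg38, plus strand), had 26.1% (6 of 23 reads, interval 10.2 to 48.4%) in gtagaTaaaaa. Its other site past the background, at position 70246804, had 20% (4 of 20 reads), while the 77 reads at position 70245643 gave 5.2%. The intervals of the highest and of that deepest site overlap, from 1.43 to 12.8% for the latter.

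SRSF12 had the highest level of the SR genes, 47.1% in an exon at chromosome 6 position 89098928 on the minus strand (8 of 17 reads, interval 23.0 to 72.2%). RefSeq also places PM20D2, a gene of the plus strand, at this position. SRSF1, a founding SR protein that binds purine-rich enhancers, had 14.3% in a site annotated as 3'UTR (7 of 49 reads). That site lies at 24.9% of the RefSeq gene length. SRSF1 also had 8.1% in a site annotated as promoter (7 of 86 reads), and both were past the background. SRSF2, which also acts in transcription elongation, had 8.7% in its 3'UTR (7 of 80 reads, past the background) and 5.9% in a promoter site with the deepest coverage of the group (6 of 102 reads). The SRSF1 and SRSF2 promoter sites lie 2543 and 1365 nt into their genes.

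SRSF4 had 13.7% in an intron (7 of 51 reads, past the background, tttggTtttta). SRSF3, the smallest SR protein, had 13.8% in its 3'UTR and 8.6% in an intron 433 nt from the gene start, from 4 and 3 deletion reads. SRSF10, which acts as a repressor when dephosphorylated, had 7.1% in its 3'UTR (3 of 42 reads), and SRSF9 5.1% in the termination region (3 of 59 reads), a position that RefSeq also gives to GATC on the plus strand. None of these last 4 sites was past the background.

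The SR-related genes are coactivators that join SR proteins on enhancers. Of the 5 genes 3 had a site, with 9 sites at a median of 9.1%, from 6.2 to 17.6%, and 2 were past the background. SON, a large speckle protein needed for the splicing of weak introns, had 7.9% in an exon at chromosome 21 position 33554096 (9 of 114 reads, interval 3.67 to 14.5%, past the background) in cagttTagtta. Its other exonic site had 7.0% (5 of 71 reads) and its intronic site 17.6% (3 of 17 reads). TRA2A, which binds purine-rich enhancers, had 4 sites between 8.5 and 12.5%, of which the deepest, an intronic site at chromosome 7 position 23523000, had 10.1% (9 of 89 reads, past the background). TRA2B had 12.5% and 6.2% in introns, from 4 and 3 deletion reads. The 4 TRA2A levels lie within the interval of each one of them.

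The hnRNP proteins coat nascent transcripts. Of the 18 genes 10 had a site, with 22 sites at a median of 12.1%, from 5.1 to 35.7%, and 9 were past the background. HNRNPA2B1 had 4 intronic sites within 10820 nt of gene. They had 35.7% (10 of 28 reads, chromosome 7 position 26194812), 14.3% (8 of 56 reads), 14.3% (4 of 28 reads) and 5.6% (5 of 89 reads). The first 2 were past the background, and the interval of the highest (18.6 to 55.9%) does not reach that of the lowest (1.85 to 12.6%). All 4 stand in stretches of at least 5 uridines:
HNRNPA2B1, 35.7%: cagccTttttt
HNRNPA2B1, 14.3% of 56 reads: ctgaaTttttc
HNRNPA2B1, 14.3% of 28 reads: taaacTtttta
HNRNPA2B1, 5.6%: aagttTttttt
These 4 contexts show listed levels from 5.6% (89 reads) to 35.7% (28 reads) at the same kind of sequence in 1 gene. The minimum of 3 deletion reads sets a higher lowest listed level at 28 reads than at 89, and its part in the spread was not tested.

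HNRNPC, which itself binds uridine tracts, had 19.4% (6 of 31 reads, gatgcTctcta) and 18.2% (4 of 22 reads, ctttcTttttt), both intronic and past the background. HNRNPR had 18.5% in an intron (5 of 27 reads) and 16.7% in the termination region (7 of 42 reads), both past the background, and a neighbouring pair of intronic bases at 5.5 and 5.4%. HNRNPF, which binds runs of G, had a neighbouring pair in the termination region at 13.7 and 13.2% (7 of 51 and 7 of 53 reads, both past the background) at 98.5% of the RefSeq gene length. HNRNPDL had 11.7% in the termination region (7 of 60 reads, past the background).

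HNRNPA1, a repressor that binds UAG-containing motifs, had a neighbouring pair annotated to the termination region at 10.6 and 10.0% (5 of 47 and 5 of 50 reads, chromosome 12 positions 54284271 and 54284272), although these bases lie at about 55.7% of the length of the RefSeq gene. HNRNPU, a nuclear matrix protein, had 6.6% in sequence annotated as intergenic (5 of 76 reads, chromosome 1 position 244849267), 1030 nt past the end of the RefSeq gene on its strand. HNRNPK had 12.5% in an intron (4 of 32 reads, within HNRNPK-AS1, which RefSeq places on the opposite strand), and HNRNPUL1 8.3% (3 of 36 reads). HNRNPA0 had 5.1% at the deepest coverage of the group (6 of 117 reads, interval 1.9 to 10.8%). Its site is annotated as 3'UTR and lies at 36.1% of the RefSeq gene length. None of these 6 sites was past the background.

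The PTB proteins bind pyrimidine tracts and repress exons. PTBP1, the form of most cells, had no listed site, whereas its paralogs PTBP2, the form of neurons, and PTBP3 had 9 and 5. The paralogs are also longer, with 101956 nt for PTBP2 and 162168 nt for PTBP3 against 14861 nt for PTBP1. The 14 sites had a median of 12.25%, and 5 were past the background, all in PTBP2. PTBP2 had 3 listed bases in a row in an intron, at chromosome 1 positions 96734920, 96734921 and 96734922, with 18.2% (4 of 22 reads), 37.5% (9 of 24 reads) and 44.0% (11 of 25 reads). All 3 were past the background, and their contexts are the same stretch of uridines shifted by 1 base:
PTBP2, 18.2%: tttttTttcct
PTBP2, 37.5%: tttttTtcctg
PTBP2, 44.0%: tttttTcctgc
The level increased along the run, but the 3 intervals overlap (5.19 to 40.3%, 18.8 to 59.4% and 24.4 to 65.1%), and neighbouring bases are covered by overlapping reads.

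PTBP2 also had 26.3% in an intron (5 of 19 reads, chromosome 1 position 96730782, cagccTgcttt) and 22.2% in sequence annotated as intergenic 4609 nt past the RefSeq end (4 of 18 reads), both past the background. Its deepest site, in the termination region, had 5.0% (5 of 101 reads). The remaining PTBP2 sites had 5.5% in the 5'UTR, 8.0% in the 3'UTR and 9.5% in an intron. PTBP3 had 5 sites from 6.0 to 18.8%, of which 4 lay past 97% of the gene length, and none was past the background.

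The tissue-type regulators control splicing programmes of muscle, brain and other tissues. All 6 had a site, with 22 sites at a median of 13.75%, 18 of them intronic, and 10 were past the background. This group held 4 of the 8 sites of at least 30%. RBFOX2, which binds GCAUG, had 56.2% in an intron at chromosome 22 position 35880357 on the minus strand (9 of 16 reads, interval 29.9 to 80.2%, past the background), and its other 4 intronic sites had 7.9 to 16.7% from 3 or 4 deletion reads each. The interval of the highest site overlaps those of the 16.7% and 14.3% sites and lies above those of the 8.8% and 7.9% sites. MBNL1, which binds YGCY motifs, had 8 intronic sites from 5.1 to 42.1% with a median of 12.0%. Its highest, at chromosome 3 position 152443232, had 42.1% (8 of 19 reads, interval 20.3 to 66.5%), its next 22.2% (4 of 18 reads), both past the background, and its deepest 5.1% (4 of 78 reads, interval 1.41 to 12.6%). MBNL2 had 25% in an intron (4 of 16 reads, past the background) and MBNL3 11.1% (3 of 27 reads).

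QKI, a STAR-domain protein that binds ACUAA, had 4 sites, all past the background. The 3 on the plus strand had 26.7% (4 of 15 reads) and 13.2% (5 of 38 reads) in introns and 14.3% in the 3'UTR (5 of 35 reads). The highest level of all 118 sites was the fourth, 81.2% (13 of 16 reads, interval 54.4 to 96.0%), at chromosome 6 position 163415925 on the minus strand. It lies 1207 nt from one end of the RefSeq gene, the end at which transcription on the strand of the other 3 sites would start. CELF1, which binds GU-rich RNA, had 9.4 and 6.2% in an exon at 2 bases that are 3 nt apart (10 of 106 and 7 of 112 reads, aatgaTggtgg and agaaaTgatgg, the first past the background). Its remaining site, annotated to the 3'UTR, had 76.4% (55 of 72 reads, interval 64.9 to 85.6%), the most deletion reads of the 118 sites, at chromosome 11 position 47470298 on the plus strand. RefSeq has CELF1 on the minus strand. The interval of the plus-strand base lies above those of both exonic bases.

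The RBM proteins are regulators of the early spliceosome and of alternative exons. Of the 5 genes 3 had a site, with 9 sites from 5.5 to 22.2% at a median of 15.0%. RBM39, a U2AF-related protein that is the target of the degrader indisulam, had 6, of which 2 were past the background: 22.2% in the 3'UTR (6 of 27 reads, chromosome 20 position 35704288) and 14.3% in an intron (5 of 35 reads). Its deepest, in the termination region, had 5.5% (5 of 91 reads). Its other 3 intronic sites, 2 of them on neighbouring bases, had 5.6 to 16.7% from 3 deletion reads each. RBM5 had 20% (4 of 20 reads, past the background) and 6.8% (5 of 73 reads) in sites annotated as 3'UTR that lie at 38.6% and 39.2% of the gene length and within RBM5-AS1, which RefSeq places on the opposite strand. RBM4 had 15.0% in an intron (3 of 20 reads), a position that RefSeq also gives to the readthrough gene RBM14-RBM4 of the same strand.

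The 5 other RNA-binding regulators all had a site, and their 7 sites were intronic, between 12.5 and 20%, at coverages of 16 to 35 reads. EWSR1, an FET protein that couples transcription and splicing, had 20% (7 of 35 reads, chromosome 22 position 29288098, ttctgTatgga, past the background). KHDRBS1, or Sam68, had 17.1% (6 of 35 reads, past the background), 15.8% (3 of 19 reads) and 12.5% (4 of 32 reads). TIA1, which binds uridine-rich sequence after weak 5' splice sites, had 19.0% (4 of 21 reads, past the background), its paralog TIAL1 18.8% (3 of 16 reads), and TARDBP, or TDP-43, 17.6% (3 of 17 reads). At these coverages the minimum of 3 deletion reads bounds the 7 levels from below.

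Kinases of the CLK and SRPK families phosphorylate SR proteins and so set where and how they act. Of the 6 genes 5 had a site, with 17 sites from 5.2 to 23.8% at a median of 9.8%, and 5 were past the background. SRPK1 had the deepest of the 118 sites, 8.5% in its 3'UTR at chromosome 6 position 35834522 (16 of 189 reads, interval 4.92 to 13.4%, past the background, ggttgTtttgt). Its 3 intronic sites had 8.2, 9.8 and 9.1%, all within that interval. SRPK2 had 9 sites from 7.7 to 18.5%, of which 3 intronic ones were past the background, with 18.5% (5 of 27 reads), 14.3% (5 of 35 reads) and 13.6% (6 of 44 reads). CLK4 had 23.8% in its 3'UTR (5 of 21 reads, past the background, taacgTcatag). CLK1 had 8.5% in an exon (6 of 71 reads). CLK2 had 9.7% in a site annotated as promoter and 5.2% in an intron (3 deletion reads each). The CLK2 promoter site lies 9138 nt into a RefSeq gene of 10637 nt. CLK1 and CLK4 are known for introns that are retained in the nucleus, and the exon and 3'UTR annotations of their sites were not set against exon structure here.

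**Figure D4:**
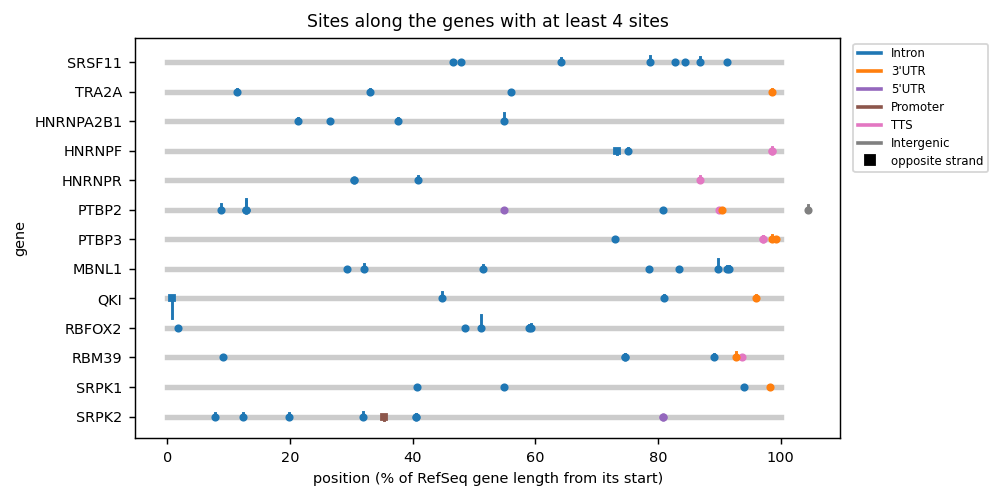
Position of each site as percent of the RefSeq gene length from the gene start (horizontal axis) in the 13 genes with at least 4 sites. Line height is proportional to the deletion level, colours are annotated regions, and squares with lines pointing down are sites on the opposite strand. SRSF11 sites lie between 46.7% and 91.3% of the gene length, and those of SRPK2 between 7.76% and 80.9%.

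The strand of a site could be set against that of the gene for 36 genes with a strand in the RefSeq promoter table. Of their 95 sites, 5 lay on the opposite strand (5.26%), against 5.83% of the protein-coding sites with such a strand. QKI, for which that table has no entry, adds the site that lies opposite to its other 3, so that 6 sites in 6 genes were opposite. RBFOX2, RBM39, TRA2A, HNRNPA1 and SRSF2 had no strand there either. Each had sites on 1 strand only, which was taken as that of the gene, so none of their sites could be opposite. Genes with sites on both strands were CELF1, HNRNPDL, HNRNPF, QKI and SRPK2, and the only TIAL1 site was opposite to its gene. The 2 highest levels of the 118 sites, 81.2% and 76.4%, were among these 6. The other 4 had 18.8% (TIAL1, 3 of 16 reads), 14.3% (HNRNPF, 3 of 21 reads), 14.3% (SRPK2, 3 of 21 reads) and 8.1% (HNRNPDL, 3 of 37 reads), each with the minimum of 3 deletion reads. Outside these 6 sites the highest level was that of RBFOX2, 56.2%, whose gene strand was taken from its own sites. Among sites on the RefSeq strand of their gene it was that of SRSF12, 47.1%. As deposited, these 6 sites are thus not in the sense transcript of the splicing regulator they are named for. Over protein-coding sites of at least 50% with a RefSeq strand, 7 of 71 were opposite.

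One of the 6 lies in a RefSeq promoter window, the 250 bases before and 50 after a start of SRPK2 (GRCh38.p14, minus strand). The site is 188 nt before that start, which is internal to the gene: the site lies at 35.3% of the length of the whole RefSeq gene, 100390 nt from its outermost start, on the strand opposite to it. The 61 bases of RefSeq sequence around it are shown on the plus strand, the strand of the site, with the listed base in capitals:
SRPK2, chr7:105298937-105298997: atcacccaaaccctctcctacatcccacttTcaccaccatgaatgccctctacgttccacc
Over the whole table, 72 comparisons between a context and such a window were possible, and in all 72 the deposited context equalled the RefSeq sequence at the listed position and strand. No other of the 95 sites in the 36 genes with a strand in the RefSeq promoter table lay in a promoter window of its own gene. That includes the SRSF1 and CLK2 sites annotated as promoter. The 6 genes without a strand there, among them SRSF2 with its promoter site, are not covered by this statement.

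Uridine runs were frequent at the sites of these genes. Of the 118 sites 73 (61.9%, interval 52.5 to 70.6%) stood in a run of at least 2, against 58.7% of all sites. In runs of at least 5, as far as the 11 bases show them, stood 27 sites in 18 genes (22.9%, interval 15.7 to 31.5%), against 10.9% over the whole table and 11.5% for protein-coding genes. Among intronic sites the shares were 29.3% (22 of 75, interval 19.4 to 41.0%) and 13.9%. With sites within 5 nt of each other on a strand counted once, they were 21.3% of 108 places and 10.1% of 12542. Sites in these runs had a median of 11.5%, from 5.2 to 76.4%, and the others 12.5%, both at a median coverage of 35 reads. The interval covers counting error only, and sites of 1 gene are not independent, so no test was made of the difference. At least 8 pyrimidines among the 10 flanking bases were found at 22 sites (18.6%), against 18.7% of all sites.

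A deletion within a run cannot be assigned to one uridine, and the listed base followed the strand. On the plus strand 25 of 28 sites in a run of at least 2 were listed at the 3' end of the run (89.3%), and on the minus strand 36 of 45 at the 5' end (80.0%). In both cases that is the end with the higher genome coordinate. The same shares over all sites were 87.2% and 85.5%. In 9 places, 19 sites lay within 5 nt of each other, in CELF1, HNRNPA1, HNRNPF, HNRNPR, PTBP2, PTBP3, RBM39 and SRPK2 (2 places). In 8 of the 9 these were consecutive bases of 1 run with levels within 1 percentage point of each other, except in PTBP2. SRPK2, for example, had 7.9% and 7.7% at neighbouring bases of its 5'UTR site, with 3 deletion reads of 38 and of 39, and 11.5% at both bases of an intronic pair. Whether such pairs are 1 modified base listed at several positions was not tested. Only the CELF1 pair lay at separate uridines.

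**Figure D5:**
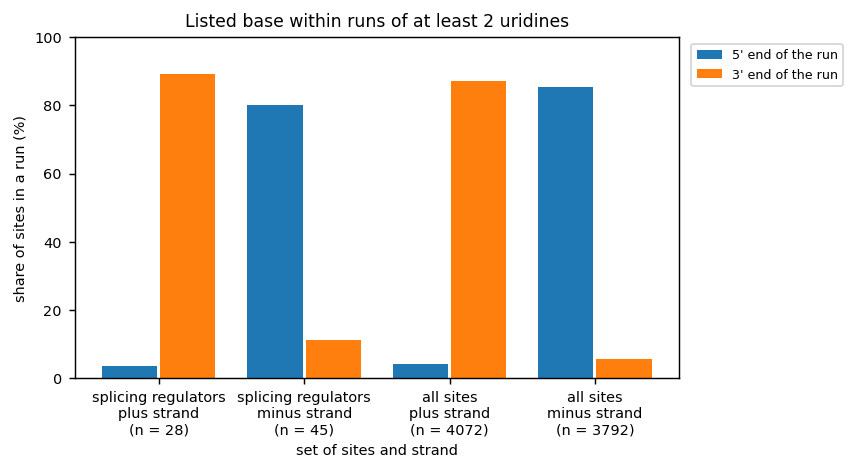
Share in percent (vertical axis) of sites in runs of at least 2 uridines that are listed at the 5' or at the 3' end of the run, by strand, for the splicing regulators and for all sites. Plus-strand sites are listed at the 3' end and minus-strand sites at the 5' end in at least 80% of cases in both sets.

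Sequences that known pseudouridine synthases prefer, and uridine tracts, were searched on the strand of the site. The modified base was the listed one, and the classes were exclusive in the order given, with tracts last. A tract here is uridine from 2 bases before to 2 bases after the base, and no synthase is assigned to it. As listed, 10 of the 118 sites had one (8.47%, interval 4.14 to 15.0%), against 8.02% of all sites. When each uridine of a run was tried, 40 had one (33.9%), against 20.7% of all sites. Of the 40, 27 were uridine tracts (22.9% of the 118 sites), against 9.66% of all sites. These 27 are the sites in runs of at least 5 uridines given above, so they are not a separate result. The form shared by PUS7 and PUS1 (URUAR, where R is A or G) stood at MBNL2. The other PUS7 form (UNUAR) stood at MBNL1, RBM5 and SON, and the other PUS1 form (HRUAR, where H is A, C or U) at 2 SRSF11 sites and at the highest MBNL1 site. TRUB1, which was not deleted in the knockout, prefers GUUCNA, and 1 site had it as listed, in HNRNPA1. In the sequences below, the listed base is in capitals.
MBNL2, URUAR, 25%: cattgTaaaca
SON, UNUAR, 7.9%: cagttTagtta
RBM5, UNUAR, 20%: gtctcTaggtg
MBNL1, UNUAR, 15.4%: aatttTagtct
MBNL1, HRUAR, 42.1%: ctaaaTaaatt
SRSF11, HRUAR, 15.8%: atcagTaagtg
SRSF11, HRUAR, 9.5%: cttagTaacaa
HNRNPA1, GUUCNA, 10.0%: gcggtTccagc
HNRNPU, GUUCNA with the base of the run 3′ to the listed one, 6.6%: aacagTtccat
Of these, the sites in MBNL2, SON and RBM5 and the HRUAR site of MBNL1 were past the background. Counting any uridine of the run added the HNRNPF pair and a TRA2A site (acataTtttaa) to UNUAR, and the other HNRNPA1 base and HNRNPU to GUUCNA. Those 3 GUUCNA sites (2.54%) compare with 1.56% of all sites, and UNUAR counted in this way had 5.08% against 5.48%. URUAR stayed at 0.85% against 1.63%, and HRUAR at 2.54% against 2.33%. The remaining 2 of the 10 were uridine tracts, in HNRNPA2B1 and PTBP2.

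The letters of a 5' splice site, GTAAG or GTGAG in DNA letters, were searched with the listed base as the T in position 2, on the strand of the site. They were found at 4 of the 118 sites (3.39%, interval 0.931 to 8.45%), against 0.985% of all sites. Among the intronic sites of these genes the share was 5.33% (interval 1.47 to 13.1%), against 1.32% of all intronic sites.
KHDRBS1, 17.1%: caaggTaaggc
SRSF11, 15.8%: atcagTaagtg
RBFOX2, 8.8%: ttaggTgaggt
MBNL1, 5.1%: ctttgTgagct
All 4 are annotated as intronic, the KHDRBS1 site was past the background, and the other 3 rest on 3 or 4 deletion reads. The SRSF11 site is also one of the HRUAR sites above. These letters also occur away from splice sites. No exon structure was used here, so whether any of the 4 is a splice site in use was not tested.

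Contexts that occur more than once in the table were found at 9 of the 118 sites (7.63%), against 12.4% of all sites. All 9 hold at least 5 uridines in a run. The HNRNPF context ttttcTttttt (11.5%) was listed at 14 other sites, the RBM4 context tttttTccttt (15.0%) at 9, the HNRNPC context ctttcTttttt (18.2%) at 8 and the CELF1 context at 6. The CELF1 site had 76.4%, whereas the same 11 bases elsewhere had 5.0 to 26.1% with a median of 13.8%, at 19 to 120 reads. The HNRNPC, HNRNPF and RBM4 sites lay within the range of the other sites with their context (5.3 to 18.5%, 7.0 to 17.6% and 6.8 to 31.6%). The other repeated contexts were those of CLK2 (5.2%), TRA2A (9.1%) and the lower HNRNPA2B1 site of 28 reads (14.3%), each listed at 1 or 2 other sites, and 2 of the 3 PTBP2 bases. Both PTBP2 contexts recurred in SNX18P10, at 26.7%. No member site lay inside a small RNA gene of RefSeq.

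Processed copies of these genes could take reads from them or lend reads to them. The table lists 15 sites in 14 pseudogenes named for a member, 8 of the 15 for HNRNPA1, at 5.9 to 31.2%, and none of the 15 has the same context as a site of the 118. The sources used here do not give how the authors placed reads that fit several loci. Levels of sites outside introns in HNRNPA1, SRSF3 and RBM39, which have copies in the table, are therefore less certain. HNRNPC and HNRNPK also have copies in the table, but their listed sites are all annotated as intronic, sequence that processed copies lack. Whether the listed pseudogenes are processed copies was not checked.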

How the data were processed

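The deposited table lists 13398 sites of HEK293T pre-mRNA on hg38, the build per the submitters' processing notes. Per the file headers it gives, for each site, the deletion level as a fraction, which is the authors' share of covering reads with a deletion, a count of covering reads, and the authors' p-value and FDR. The sources used here give no aligner, site caller or filter, and the authors' values are pooled with no column per library. There are 0 further columns of values per sample.

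Deletion reads were recovered as level times coverage, rounded, because levels are deposited to 1 decimal of a percent. Exact binomial tests and Clopper-Pearson intervals (95%) came from scipy 1.17.1, with pandas 2.3.3, numpy 2.4.6 and matplotlib 3.10.9 in Python 3.11.15. The test was checked on simulated counts. Gene lengths, positions and strands came from RefSeq (GRCh38.p14), in which all 59 genes matched. Strand was missing for 6 of the genes with sites, and the strand of most of their own sites was used. Values are described, with no test between groups. By rule, each gene with a site was named, and values were given for sites past the background, with a motif class or a repeated context, for genes with sites on both strands, for the highest site of each region, and in each group for the gene with the most sites and the sites of highest level, coverage and deletion reads. The members and lists were chosen with earlier results of these data known. Alternatives changed the coverage, level and deletion read minimum, the background rate, the adjustment, the motif counting, the strand, and the exclusion of small RNA and repeated contexts.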

Additional observations from a re-analysis of the deposited data

How the results depend on the processing

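Each level is 1 pooled value, so depth limits all of these results, and intervals cover counting error only. No paired analysis was possible because the table has no column per library, and no library could be left out. With at least 60 covering reads, sites were left in 18 of the 42 genes, the median level was 6.65%, the intronic share 34.6% (28.7% of all sites at that coverage) and the count past the background 8 of 26 (30.8%, against 42.6% of all sites at that coverage). With at least 30 reads, the median was 8.6% and the intronic share 54.2%. In the bin of 30 to 59 reads the intronic share was 65.2%, against 48.2% of all sites in that bin. With at least 5 deletion reads, the intronic share was 44.0%. For all sites the share at that last setting was not computed, so 44.0% cannot be set against the 50.9% of the whole table. These settings keep fewer sites, and beyond that the cause was not tested. The count past the background was 118 against 0.1%, 118 with adjustment over the listed sites alone, and 16 against 2%, where 100% and 17.9% of all sites passed at the first and last. The motif count, uridine tracts included, was 40 with any uridine of the run. It was 1 on the minus strand alone, against 9 on the plus strand, a split whose cause was not tested. Genes with a site numbered 29 with at least 5 deletion reads, 33 with levels of at least 10% and 41 outside small RNA genes and repeated contexts. Over the whole table, 1975 of 7042 gene symbols kept a site with at least 60 reads. Counts over all genes under the other settings were not made, so the 29, 33 and 41 have no comparison. The median was between 11.85% and 13.65% under its other alternatives. Without opposite-strand sites, an alternative chosen after seeing the data, the median was 11.85%, the intronic share 64.3% and the count past the background 42.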

Other observations

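A list of 67 other splicing regulators that are not among the 59 genes held 91 sites in 37 genes (55.2%), at a median of 12.1%, and 66 of the 91 were intronic (72.5%). NOVA1, a neuronal regulator that binds YCAY motifs, had the highest level of the list, 41.2% (7 of 17 reads). MSI2, an RNA-binding protein of stem cells, had 35.0% (7 of 20 reads) at the highest of its 13 sites. RBM15, which recruits the m6A methyltransferase to RNA, had 34.5% (10 of 29 reads), and PNN, a nuclear speckle protein, had 33.3% in a promoter site (6 of 18 reads). Of the 73 sites of this list whose gene strand RefSeq gives, 3 lay on the opposite strand, and 33 of the 91 were past the background (36.3%).

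Among 13 pseudouridine synthase genes, the enzymes that make the modification, PUS7L and PUS7 had sites, 6 in all at a median of 10.35%. PUS7L held 5 of them, the highest at 31.6% in a promoter site (6 of 19 reads), and PUS7 had 10.0% in an intron (4 of 40 reads). No site was listed in the other 11 genes, and a table of called sites does not show that they lack one.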
